A study of Homo sapiens with 9 samples.

Results

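The 9 interferon-stimulated genes described here are IFIT1, IFIT2, IFIT3, ISG15, MX1, OAS1, IRF7, IFI6 and DDX58. Of these, DDX58 encodes the RNA sensor RIG-I. The 9 genes were chosen by name, with earlier results of these data known, and all 9 were found among the 19930 genes of the expression table. RNA was sequenced from cells labelled MDA-MB-453, a long-established line from a human breast carcinoma, collected 48 h after they had received small interfering RNA (siRNA) by lipofection. Group si-NC received a negative control siRNA, and groups si-LINC00673-1 and si-LINC00673-2 each received 1 of 2 siRNAs against the long noncoding RNA LINC00673. Each group had 3 libraries, whose titles end in no suffix, r1 or r2 and whose values are listed in that order, so that 9 libraries of transfected cells were compared, all from the same line. LINC00673 itself was not analysed here. Nothing in the labels says that the libraries of a group came from separate cultures, and the P values below then measure only the spread between these libraries.

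Interferons are secreted by cells that detect foreign nucleic acid. RIG-I binds double-stranded RNA in the cytoplasm and signals through MAVS, the kinases TBK1 and IKBKE and the factors IRF3 and IRF7 to switch on interferon genes. Interferon then acts on receptors at the cell surface, whose kinases activate STAT2, which joins IRF9 in ISGF3, the complex that binds interferon-stimulated response elements in the promoters of genes such as the IFIT family, ISG15 and MX1. Many of these genes are also transcribed at a low level in cells that have met no virus.

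The 3 siRNAs are shown because each comparison rests on them and because RIG-I can bind double-stranded RNA. Whether RIG-I bound any of these siRNAs was not tested. The antisense strands, as listed in the study's table of oligonucleotides, are given 5′ to 3′ with the seed, bases 2 to 8, in capitals.
si-NC: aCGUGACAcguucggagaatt
si-LINC00673-1: aGAAACCUcugauuccacctt
si-LINC00673-2: uUAUUAUUugagacagggucu
As listed, the strands of si-NC and si-LINC00673-1 paired over 19 bases and each ended in 2 unpaired T, whereas the strands of si-LINC00673-2 paired over all 21 bases with no overhang. The complement of the seed of si-LINC00673-1 occurred in the longest GENCODE transcript of 1 of the 9 genes, IRF7 (1 match), against 21.2% of tested genes. That of si-LINC00673-2 occurred in IFIT1 (2 matches), OAS1 (1 match) and DDX58 (1 match), against 26.1% of tested genes. That of si-NC occurred in MX1 (1 match), against 7.06% of tested genes. IFIT2, IFIT3, ISG15 and IFI6 held none of these matches, which describes the letters of 1 transcript per gene and not binding.

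Expression is given in FPKM, a count of sequenced fragments scaled to the length of the transcript and to the mapped fragments of the library. Read from the spacing of low values, the depth was about 23400000 to 27300000 fragments per library, and the libraries of a group correlated with r = 0.9945 to 0.9959 across genes. The epithelial markers EPCAM (287 to 330 FPKM), KRT8 (3012 to 3773 FPKM), KRT18 (1680 to 2509 FPKM) and KRT19 (1044 to 1293 FPKM) were high. ERBB2 was between 11.8 and 17.8 FPKM. FOXA1, which MDA-MB-453 is known to express, was at 0 to 0.04 FPKM, and GATA3 was at 0.41 to 0.88 FPKM, so these defining markers of the labelled line were at or near 0 in all 9 libraries. The 4 leukocyte markers in the table summed to 0.15 to 0.31 FPKM, and CD3E and LILRA4 were not analysed here. Of the 5 fibroblast markers, COL1A1 (3.49 to 7.08 FPKM) and LUM (5.33 to 7.11 FPKM) were measurable while DCN and COL1A2 were near 0. The sum of these 5 was 9.54 to 10.2 FPKM in si-NC, 12.5 to 12.95 in si-LINC00673-1 and 11.3 to 12.7 in si-LINC00673-2, and KRT18 fell with both siRNAs. The 3 endothelial markers summed to 0.55 to 0.60 FPKM in si-NC and 0.89 to 1.01 FPKM with the siRNAs. The part of these markers in the results below was not tested. In bulk RNA, fewer cells that express a gene and less of its RNA per cell cannot be told apart.

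The levels of the 9 genes spanned a wide range in the si-NC group. ISG15 was the most abundant (68.3 ± 6.21 FPKM, SD, n = 3), followed by IFI6 (34.96 ± 2.70), IRF7 (14.003 ± 1.72) and OAS1 (10.03 ± 0.397). MX1 (1.94 ± 0.282), DDX58 (1.197 ± 0.188) and IFIT3 (1.17 ± 0.159) were low, and the libraries of DDX58 and IFIT3 overlapped each other. IFIT2 (0.73 ± 0.0608) and IFIT1 (0.473 ± 0.0493) were lowest. No library came from interferon-treated cells. RSAD2, IFI44L and CMPK2, which are among the genes most strongly induced by interferon, were at 0 to 0.01 FPKM in every library. They were named outside the rule given below. Other interferon-stimulated genes of the same list were expressed in si-NC, such as IFITM2 (mean 229 FPKM), IFITM3 (155 FPKM) and LY6E (44.6 FPKM).

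**Figure D1:**
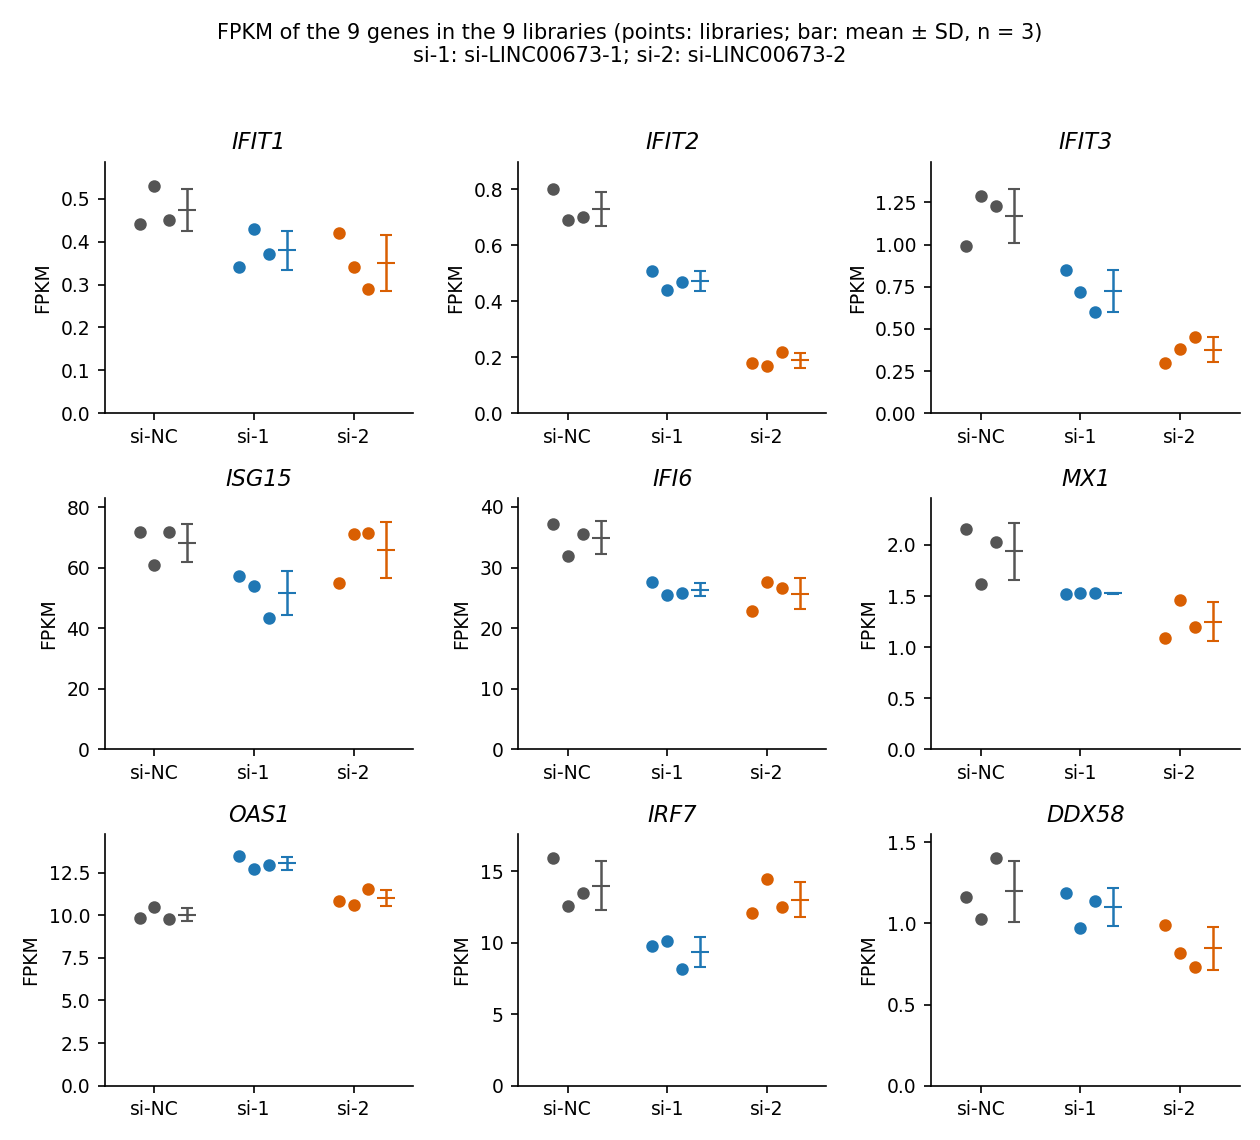
FPKM of each of the 9 genes (vertical axis, from 0) in the 3 libraries of each group (points), with the mean ± SD of the group (n = 3). IFIT2 and IFIT3 step down from si-NC to si-LINC00673-1 to si-LINC00673-2 with no overlap, ISG15 and IRF7 are low in si-LINC00673-1 alone, and OAS1 is highest in si-LINC00673-1.

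Interferon-stimulated response elements were sought as a core of 10 bases, GAAANNGAAA or its reverse complement TTTCNNTTTC, in RefSeq promoter windows of 250 bases before to 50 bases after each annotated start (GRCh38.p14). Windows were found for 7 of the 9 genes, those of IFIT1, IFIT3, ISG15, MX1, OAS1, IFI6 and DDX58. The core was present in 5 of the 7, against 4.38% of the 27305 genes with a window. The stretches that hold it are shown for IFIT1, IFIT3, ISG15 and IFI6, with the cores in capitals, 5′ to 3′ on the strand of the gene.
IFIT1, chr10:89392497-89392539, plus strand: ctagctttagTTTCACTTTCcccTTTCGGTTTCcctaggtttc
IFIT3, chr10:89332425-89332497, plus strand: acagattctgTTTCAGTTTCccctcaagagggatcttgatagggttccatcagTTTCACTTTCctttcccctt
ISG15, chr1:1013374-1013409, plus strand: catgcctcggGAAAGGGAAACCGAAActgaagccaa
IFI6, chr1:27672266-27672358, minus strand: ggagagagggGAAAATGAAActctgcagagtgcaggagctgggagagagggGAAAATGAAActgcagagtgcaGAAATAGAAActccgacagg
The 2 cores of ISG15 overlapped by 4 bases, and the same core, GAAAATGAAA, stood 2 times in the window of IFI6. The windows of OAS1 and DDX58 held no core, which says only that these letters are absent from those 300 bases. Among the other interferon-stimulated genes listed below, 23 of 32 with a window held the core, and among genes of MHC class I presentation 5 of 8.

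**Figure D2:**
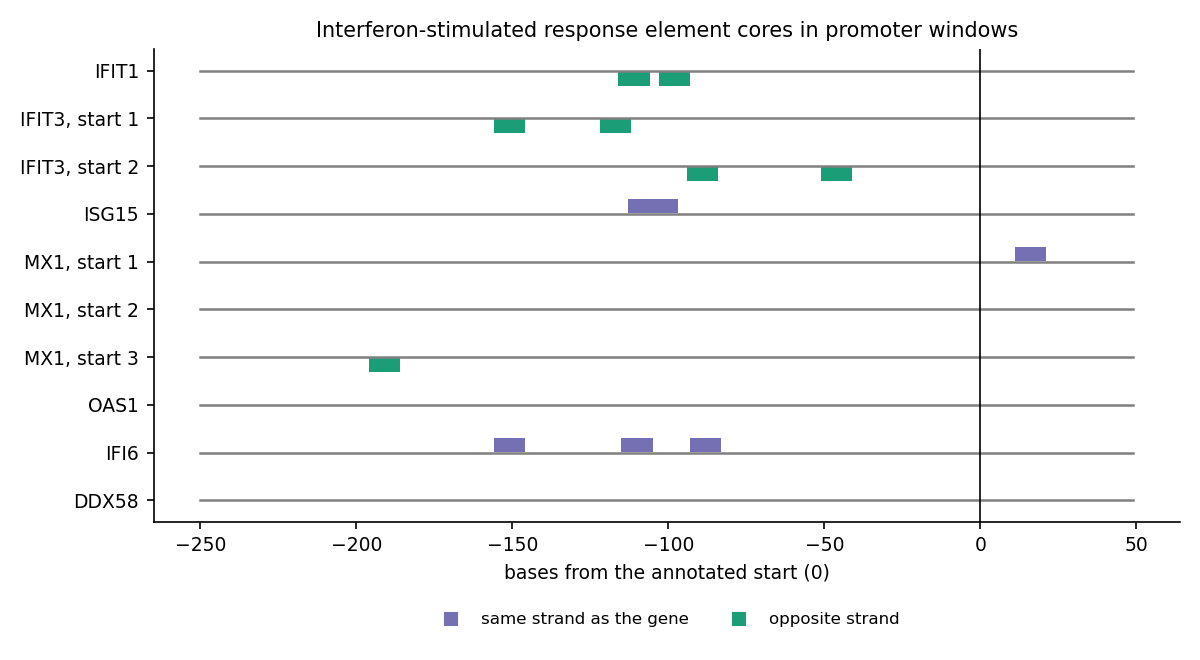
Position of each core (boxes of 10 bases) in the promoter windows, in bases from the annotated start at 0, with 1 line per start for genes with several. Above the line, the core GAAANNGAAA reads on the strand of the gene, below it on the opposite strand; the windows of IFIT1, IFIT3, ISG15 and IFI6 hold 2 or 3 cores each, those of OAS1 and DDX58 none.

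IFIT2, IFIT3 and IFIT1 encode proteins that bind viral RNA and restrain its translation, and their genes lie beside each other on chromosome 10 (GRCh37, the build named in the submitters' notes). IFIT2 (91061706 to 91069033, plus strand) was at 0.8, 0.69 and 0.7 FPKM in the si-NC libraries, 0.51, 0.44 and 0.47 in si-LINC00673-1 and 0.18, 0.17 and 0.22 in si-LINC00673-2. The 3 groups did not overlap, and the mean differed from si-NC by -35.2% with the first siRNA and by -74.0% with the second. These levels corresponded to about 60 to 74, 36 to 45 and 14 to 18 fragments per library.

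IFIT3 (91087576 to 91100725, plus strand) was at 0.99, 1.29 and 1.23 FPKM with si-NC, 0.85, 0.72 and 0.6 with si-LINC00673-1 and 0.3, 0.38 and 0.45 with si-LINC00673-2. The groups were again fully separated, with means that differed from si-NC by -38.2% and -67.8%. IFIT1 (91152303 to 91166244, plus strand) was at 0.44, 0.53 and 0.45 FPKM with si-NC, 0.34, 0.43 and 0.37 with si-LINC00673-1 and 0.42, 0.34 and 0.29 with si-LINC00673-2. Both siRNA groups lay just below the si-NC libraries, whose lowest was 0.44 FPKM against a highest of 0.43 and 0.42, and overlapped each other.

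The mean of these 3 genes over the 9 libraries, 0.464, 0.757 and 0.401 FPKM, was under the filter of 1 FPKM, and they were fitted with limma on log2(FPKM + 0.1) over all 19930 genes without a filter, a setting chosen after seeing the data. On that scale IFIT2 fell by 0.53 with si-LINC00673-1 (SE 0.13, Benjamini-Hochberg adjusted P = 0.0078) and fell by 1.52 with si-LINC00673-2 (SE 0.13, adjusted P = 1.4e-05). IFIT3 fell by 0.63 (SE 0.18, limma adjusted P = 0.017) and fell by 1.42 (SE 0.18, adjusted P = 0.00015). The study's criteria ask for a 1.3-fold difference or more together with an unadjusted P no higher than 0.05. In this fit 15.2% and 23.1% of all genes passed them in the lower direction with si-LINC00673-1 and si-LINC00673-2. The log2 fold change of IFIT1 was -0.26 (SE 0.15, limma adjusted P = 0.20) and -0.36 (SE 0.15, adjusted P = 0.077), neither of which passed. With 1 FPKM added and no filter, IFIT2 and IFIT3 were at -0.23 and -0.33 with si-LINC00673-1, under the fold limit. The 2 siRNAs differed by -0.99 for IFIT2 (SE 0.13, limma adjusted P = 0.00088) and by -0.79 for IFIT3 (SE 0.18, adjusted P = 0.011), lower with si-LINC00673-2, where 10% of all genes passed as lower between the siRNAs.

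Among the 2112 genes with a mean of 0.3 to 1 FPKM, 11.7% had a si-LINC00673-1 mean and 19.4% a si-LINC00673-2 mean under 0.5 times that of si-NC. The means of IFIT2 and IFIT3 were under 0.5 times with si-LINC00673-2 and above it with si-LINC00673-1. IFIT5, the neighbouring member of the family, which was named after its values were seen, was at 2.36 ± 0.0265, 2.18 ± 0.139 and 1.22 ± 0.121 FPKM in si-NC, si-LINC00673-1 and si-LINC00673-2 (n = 3). Its log2 fold change on the log2(FPKM + 1) scale was -0.08 with si-LINC00673-1 (limma, Benjamini-Hochberg adjusted P = 0.27) and it fell by 0.60 with si-LINC00673-2 (adjusted P = 1.3e-05).

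The other 6 genes had a mean of at least 1 FPKM, DDX58 being just inside at 1.05 and IFIT3 just outside at 0.757, and were tested with limma on log2(FPKM + 1) in a fit of 12884 genes. This scale understates the change of low genes. With si-LINC00673-1, 3 of the 6 passed the criteria as lower, where 15.6% of tested genes did, and 0 as higher, where 11.1% did. By unadjusted P alone 5 of the 6 were at or under 0.05, as were 67.7% of tested genes. With si-LINC00673-2, 2 of the 6 passed as lower, where 23.1% of tested genes did, and 0 as higher, where 11% did. By unadjusted P alone 4 of the 6 were at or under 0.05, as were 72.9% of tested genes. Between the siRNAs, 3 of the 6 were at or under 0.05 by limma P values after Benjamini-Hochberg adjustment, as were 44% of tested genes, and with 0.1 FPKM added and no filter 4 of the 9 were, against 27.6% of all genes. Both comparisons with si-NC used the same si-NC libraries. For the 6 genes the median log2 fold change came to -0.30 and -0.17 with the first and second siRNA, beside 0.0032 and -0.095 over all tested genes. These medians are without the correction for GC content given below. It put ISG15 and IRF7 at -0.08 and -0.02 with si-LINC00673-1 and at 0.32 and 0.40 with si-LINC00673-2.

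All 9 genes can be described by the overlap of the libraries. With si-LINC00673-1, 7 of the 9 had each library below each si-NC library, OAS1 had each above, and DDX58 overlapped. With si-LINC00673-2, 6 were below, OAS1 was above, and ISG15 and IRF7 overlapped. Such separation was frequent in the table, with 35.1% of tested genes below and 35% above for si-LINC00673-1, and 46.1% below and 26.9% above for si-LINC00673-2. IFIT1, IFIT2 and IFIT3 were under the filter and are not among those tested genes. Of the 2112 genes with a mean of 0.3 to 1 FPKM, 23.3% were below and 23.6% above for si-LINC00673-1. For si-LINC00673-2, 34% of them were below and 19% above. An exact permutation test of 3 against 3 libraries cannot give a two-sided P below 0.1.

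IFI6, a small mitochondrial protein that restrains apoptosis and the replication of some viruses, was lower with both siRNAs. It was at 37.3, 32.0 and 35.6 FPKM with si-NC, 27.6, 25.5 and 25.9 with si-LINC00673-1 and 22.9, 27.6 and 26.7 with si-LINC00673-2, and both siRNA groups lay below all si-NC libraries and overlapped each other. IFI6 (chr1:27992572-27998724, GRCh37, minus strand) fell by 0.39 with si-LINC00673-1 (SE 0.074, limma, Benjamini-Hochberg adjusted P = 0.00096) and by 0.43 with si-LINC00673-2 (SE 0.074, adjusted P = 0.00045). It was the only member of the 9 that passed the criteria with both siRNAs on this scale. The difference between the siRNAs was -0.04 with a 95% interval from -0.20 to 0.13. The limit of 1.3-fold is 0.38 on the log2 scale, and IFI6 was under it at 0.32 with TPM scaling for si-LINC00673-1 and at 0.33 with median-ratio scaling for si-LINC00673-2. Leaving out the unsuffixed library of si-LINC00673-2 gave 0.35 for that siRNA, and leaving out the unsuffixed si-NC library or library r1 of si-LINC00673-1 gave 0.35 and 0.37 for si-LINC00673-1.

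MX1, a GTPase that traps viral nucleocapsids, was at 2.16, 1.62 and 2.03 FPKM with si-NC, 1.52, 1.53 and 1.53 with si-LINC00673-1 and 1.09, 1.46 and 1.2 with si-LINC00673-2. The groups did not overlap and were ordered as for IFIT2 and IFIT3, with means that differed from si-NC by -21.2% and -35.5%. MX1 (chr21:42792245-42831141, GRCh37, plus strand) fell by 0.38 with si-LINC00673-2 (SE 0.086, limma, Benjamini-Hochberg adjusted P = 0.0026), while the value with si-LINC00673-1 was -0.21 (SE 0.086, adjusted P = 0.052). The siRNAs differed by -0.17 (95% interval from -0.36 to 0.02, limma adjusted P = 0.13). The fall with si-LINC00673-2 lay at the limit, and was 0.32 with median-ratio scaling, 0.32 after correction for GC content and 0.33 to 0.37 without the unsuffixed library or r2 of either si-NC or si-LINC00673-2. Its paralog MX2 rose by 0.40 and 0.46 with si-LINC00673-1 and si-LINC00673-2, the former being 0.34 after the GC correction, under the limit.

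DDX58 (chr9:32455300-32526322, GRCh37, minus strand) was at 1.16, 1.03 and 1.4 FPKM with si-NC, 1.19, 0.97 and 1.14 with si-LINC00673-1 and 0.99, 0.82 and 0.73 with si-LINC00673-2. The si-LINC00673-1 libraries lay within the range of si-NC except for the lowest, and the si-LINC00673-2 libraries lay below all si-NC libraries. Its log2 fold change was -0.06 with si-LINC00673-1 (SE 0.087, limma, Benjamini-Hochberg adjusted P = 0.55) and -0.25 with si-LINC00673-2 (SE 0.087, adjusted P = 0.026), and neither reached a fold change of 1.3. With 0.1 FPKM added in place of 1, the value with si-LINC00673-2 was -0.45 and passed.

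ISG15, a ubiquitin-like protein that is joined to other proteins after interferon, was at 71.8, 61.1 and 72.0 FPKM with si-NC, 57.3, 54.1 and 43.4 with si-LINC00673-1 and 55.1, 71.2 and 71.6 with si-LINC00673-2. The si-LINC00673-1 libraries lay below all si-NC libraries, and those of si-LINC00673-2 overlapped si-NC. ISG15 (chr1:948847-949920, GRCh37, plus strand) fell by 0.40 with si-LINC00673-1 (SE 0.12, limma, Benjamini-Hochberg adjusted P = 0.015). With si-LINC00673-2 the value was -0.06 (95% interval from -0.33 to 0.22, adjusted P = 0.70), and the difference between the siRNAs was 0.35 (SE 0.12, adjusted P = 0.043), under the fold limit. With 0.1 FPKM added and no filter the limma adjusted P of this difference was 0.079, and the libraries of the 2 siRNAs overlapped. Without library r2 of si-LINC00673-1, which was the lowest of the 9 libraries, the fall was 0.29, and without the unsuffixed or r2 library of si-NC it was 0.37 and 0.36, all under the limit. It was 0.32 with TPM scaling.

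IRF7, the factor that amplifies the transcription of interferon genes, followed the order of ISG15. It was at 15.9, 12.6 and 13.5 FPKM with si-NC, 9.81, 10.2 and 8.17 with si-LINC00673-1 and 12.1, 14.5 and 12.5 with si-LINC00673-2, so that si-LINC00673-1 lay below the other 2 groups, which overlapped. IRF7 (chr11:612555-615999, GRCh37, minus strand) fell by 0.53 with si-LINC00673-1 (SE 0.099, limma, Benjamini-Hochberg adjusted P = 0.00096). With si-LINC00673-2 the value was -0.09 (95% interval from -0.32 to 0.13, adjusted P = 0.41). The siRNAs differed by 0.44 (SE 0.099, adjusted P = 0.0062), and IRF7 was the 1 gene of the 6 that passed the criteria between them, where 2.19% of tested genes passed as higher and 5.45% as lower with si-LINC00673-2. Without library r2 of si-LINC00673-1 or library r1 of si-LINC00673-2 this difference was 0.35 and 0.36, under the limit.

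ISG15 and IRF7 have GC-rich transcripts, and genes of that kind moved with the siRNAs. The GC content of their longest transcripts was 63.4% and 66.8%, that of IFI6 was 56.1%, and that of the other 6 genes was 40.5% to 52.4%. The fifth of tested genes richest in GC, at 58.9% to 74.1%, had a median log2 fold change of -0.29 with si-LINC00673-1 and -0.34 with si-LINC00673-2, against 0.08 and -0.06 in the fifth poorest in GC. After each library was centred in 20 bins of GC content, a step chosen after seeing the data, the values with si-LINC00673-1 were -0.08 for ISG15 and -0.02 for IRF7. With si-LINC00673-2 they were 0.32 and 0.40, and IRF7 then passed the criteria as higher. The difference between the siRNAs was close to that without the correction, 0.40 for ISG15 and 0.42 for IRF7. IFI6 was at -0.34 and -0.29, under the limit. IFIT1, IFIT2 and IFIT3 were under the filter and were not corrected in this way.

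OAS1, the enzyme that makes the oligoadenylates that activate RNase L, was the member that was higher with both siRNAs. It was at 9.84, 10.5 and 9.77 FPKM with si-NC, 13.5, 12.7 and 12.9 with si-LINC00673-1 and 10.9, 10.6 and 11.5 with si-LINC00673-2, and the 3 groups did not overlap. OAS1 (chr12:113344582-113369995, GRCh37, plus strand) had a mean 29.9% above si-NC with si-LINC00673-1. This was 0.35 on the log2 scale (SE 0.044, limma, Benjamini-Hochberg adjusted P = 7.6e-05), under the limit of 0.38, and 0.44 with TPM scaling, over it. With si-LINC00673-2 it was 9.50% higher (log2 fold change 0.12, SE 0.044, adjusted P = 0.033). The siRNAs differed by -0.23 (SE 0.044, adjusted P = 0.0028).

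**Figure D3:**
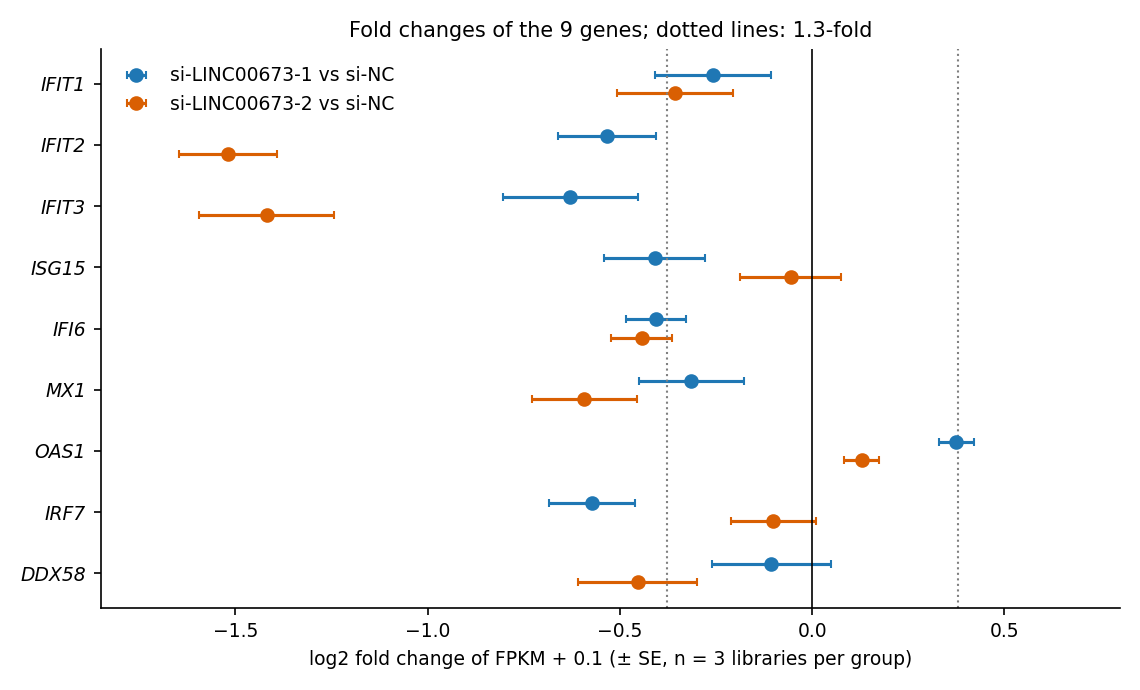
Log2 fold change against si-NC of FPKM + 0.1 for the 9 genes (horizontal axis, points ± SE, 3 libraries per group) with si-LINC00673-1 (blue) and si-LINC00673-2 (orange); dotted lines mark 1.3-fold. IFIT2 and IFIT3 reach -1.52 and -1.42 with si-LINC00673-2, ISG15 and IRF7 are lower with si-LINC00673-1 alone, and OAS1 lies above 0 with both.

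When the 6 libraries of both siRNAs were set against the 3 of si-NC, a comparison added after seeing the data, the exact two-sided permutation test gave P = 0.0119 for IFIT3, MX1 and IFI6, the smallest that 84 arrangements allow. It gave P = 0.0238 for IFIT1, IFIT2 and OAS1, and P = 0.143 for ISG15, 0.119 for IRF7 and 0.119 for DDX58 by the same exact test. The groups of 6 and 3 overlapped for these last 3 genes. The share of all genes that reach such P values is not given here, so they do not set these genes apart. Separation from si-NC was frequent with each siRNA. With si-LINC00673-1, 35.1% of tested genes lay below and 35% above all si-NC libraries. With si-LINC00673-2, 46.1% lay below and 26.9% above. Those tested genes do not include IFIT1, IFIT2 and IFIT3.

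The interferon pathway around the 9 genes was described with lists compiled from general knowledge. Their counts stand beside the shares of all tested genes given above, 11.1% higher and 15.6% lower with si-LINC00673-1 and 11% higher and 23.1% lower with si-LINC00673-2, and no list was tested against these shares. Of the interferon genes, IFNE had group means of 0.11 to 0.187 FPKM and IFNL1 and IFNL3 of 0 to 0.07 FPKM, and IFNB1 was not analysed here. Of 6 tested receptor genes, IFNGR2, named after its values were seen, fell by 0.61 with si-LINC00673-1, and IFNAR1 fell with si-LINC00673-2. IFNAR1, a chain of the receptor for type I interferon, was at 5.96 ± 0.370 FPKM in si-NC, 5.74 ± 0.155 in si-LINC00673-1 and 4.19 ± 0.360 in si-LINC00673-2 (n = 3). It fell by 0.42 with si-LINC00673-2 (limma, Benjamini-Hochberg adjusted P = 0.00014), but was under the fold limit at -0.33 with median-ratio scaling, -0.37 after the GC correction and -0.36 without library r2 of that siRNA. The other chain, IFNAR2, had log2 fold changes of 0.09 and -0.22, and IFNLR1 of 0.37 and 0.35, with none passing the fold limit. IFNLR1 passed it at 0.48 and 0.45 with 0.1 FPKM added and at 0.49 and 0.41 with TPM scaling.

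STAT2 and IRF9, both subunits of ISGF3, were lower with both siRNAs. STAT2 ranged over 14.1 to 15.5 FPKM in the si-NC libraries, 11.3 to 11.6 in those of si-LINC00673-1 and 8.05 to 8.13 in those of si-LINC00673-2, 3 ranges without overlap. It fell by 0.80 with si-LINC00673-2 (SE 0.039, limma, Benjamini-Hochberg adjusted P = 1e-07), and its value with si-LINC00673-1 was -0.34 (adjusted P = 3.7e-05), under the fold limit. IRF9 was at 4.45 to 5.04, 3.02 to 3.89 and 1.99 to 2.91 FPKM, and fell by 0.40 (limma adjusted P = 0.0076) and 0.72 (adjusted P = 0.00016). STAT2 and IRF9 thus had the same order of groups as IFIT2, IFIT3 and MX1. The share of all genes with this order was not computed, but its steps were frequent. Of tested genes, 35.1% lay below all si-NC libraries with si-LINC00673-1 and 46.1% with si-LINC00673-2, and 40.6% were lower in each si-LINC00673-2 library than in each si-LINC00673-1 library. After the GC correction STAT2 was at -0.41 and -0.79, and IRF9 at -0.35, under the limit, and -0.61. IRF9 with si-LINC00673-1 was also under it with TPM scaling (-0.36).

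Of the 12 tested genes of JAK-STAT signalling, 1 passed as higher and 2 as lower with si-LINC00673-1, and 1 as higher and 4 as lower with si-LINC00673-2. The higher gene in both was SOCS1, an inhibitor of JAK kinases, which rose by 0.40 and 0.63 from a mean of 0.567 FPKM. PTPN2, a phosphatase that acts on JAK1, fell by 0.46 and 0.40, the latter being -0.30 with median-ratio scaling and -0.33 after the GC correction, under the limit. The kinase TYK2, named after its values were seen, fell by 0.49 with si-LINC00673-2 and had a value of -0.35 with si-LINC00673-1, and the difference of -0.14 between the siRNAs had a Benjamini-Hochberg adjusted P of 0.091 in limma.

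Of the 15 tested genes of RNA and DNA sensing, 3 passed as higher and 2 as lower with si-LINC00673-1, and 0 as higher and 4 as lower with si-LINC00673-2. IRF3, the factor that RIG-I signalling activates first, was at 42.3 ± 1.32 FPKM in si-NC, 28.6 ± 1.63 in si-LINC00673-1 and 27.3 ± 2.05 in si-LINC00673-2 (n = 3), and fell by 0.55 and 0.61 (limma, Benjamini-Hochberg adjusted P = 2.2e-05 and 7.7e-06). After the GC correction IRF3 was at -0.31 and -0.33, under the limit. IKBKE, a kinase for IRF3 and IRF7, fell by 0.54 and 0.73. MAVS, the adaptor of RIG-I, fell by 0.55 with si-LINC00673-2, and its value with si-LINC00673-1 was -0.26. IFIH1, which encodes the related sensor MDA5, had values of -0.004 and -0.32, and DHX58, the third of these helicases, was at means of 0.163 to 0.207 FPKM. EIF2AK2, the kinase PKR that halts translation when it binds double-stranded RNA, rose by 0.52 with si-LINC00673-1 and had a value of 0.29 with si-LINC00673-2.

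Of the 24 tested genes among 38 other interferon-stimulated genes, 3 passed as higher and 2 as lower with si-LINC00673-1, and 4 as higher and 7 as lower with si-LINC00673-2. Their median log2 fold change was 0.02 and -0.13. IFI35 was at 4.58 ± 0.327 FPKM in si-NC, 1.59 ± 0.292 in si-LINC00673-1 and 1.25 ± 0.115 in si-LINC00673-2 (n = 3), and fell by 1.11 and 1.31 (limma, Benjamini-Hochberg adjusted P = 3.5e-06 and 8e-07). BST2, the tetherin that holds budding virus at the cell surface, fell by 0.47 and 0.67. OASL, a homologue of OAS1 without its enzyme activity, rose by 0.57 and 0.63, MX2 by 0.40 and 0.46, and ISG20, an RNA exonuclease, by 0.39 and 0.75.

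ISG15 is joined to its targets by UBA7, UBE2L6 and HERC5 and removed by USP18. UBE2L6, the conjugating enzyme, fell by 0.49 and 0.88 from 5.99 ± 0.759 FPKM in si-NC (n = 3, limma, Benjamini-Hochberg adjusted P = 0.0022 and 3.5e-05). USP18 had values of -0.05 and 0.03, and UBA7 and HERC5 were under the filter, at means of at most 0.227 and 0.0133 FPKM. Of 10 tested genes of MHC class I presentation, 1 passed as higher and 3 as lower with si-LINC00673-1, and 1 and 4 with si-LINC00673-2. TAPBP fell by 0.64 and 1.01 and PSMB9 fell by 0.42 and 0.53, and NLRC5, a transactivator of these genes, rose by 0.85 and 0.72 from 0.557 FPKM.

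RNA sensors also activate NF-kB. Of 11 tested genes that NF-kB induces, 4 passed as higher and 1 as lower with si-LINC00673-1, and 4 and 3 with si-LINC00673-2. CXCL8, the chemokine interleukin 8, rose by 0.93 and 1.18 from 12.2 ± 0.392 FPKM (n = 3, limma, Benjamini-Hochberg adjusted P = 2.1e-07 and 2.5e-08). TNFAIP3 rose by 0.66 and 0.76 and BIRC3 by 0.74 and 0.72, while NFKB2 fell by 0.42 and 0.52 (-0.10 and -0.15 after the GC correction). None of the 6 tested members of the 9 rose by these criteria, as 11.1% and 11% of tested genes did with si-LINC00673-1 and si-LINC00673-2. OAS1 with si-LINC00673-1 was at 0.35, under the fold limit, and passed at 0.44 with TPM scaling. IRF7 with si-LINC00673-2 passed as higher at 0.40 after the GC correction.

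**Figure D4:**
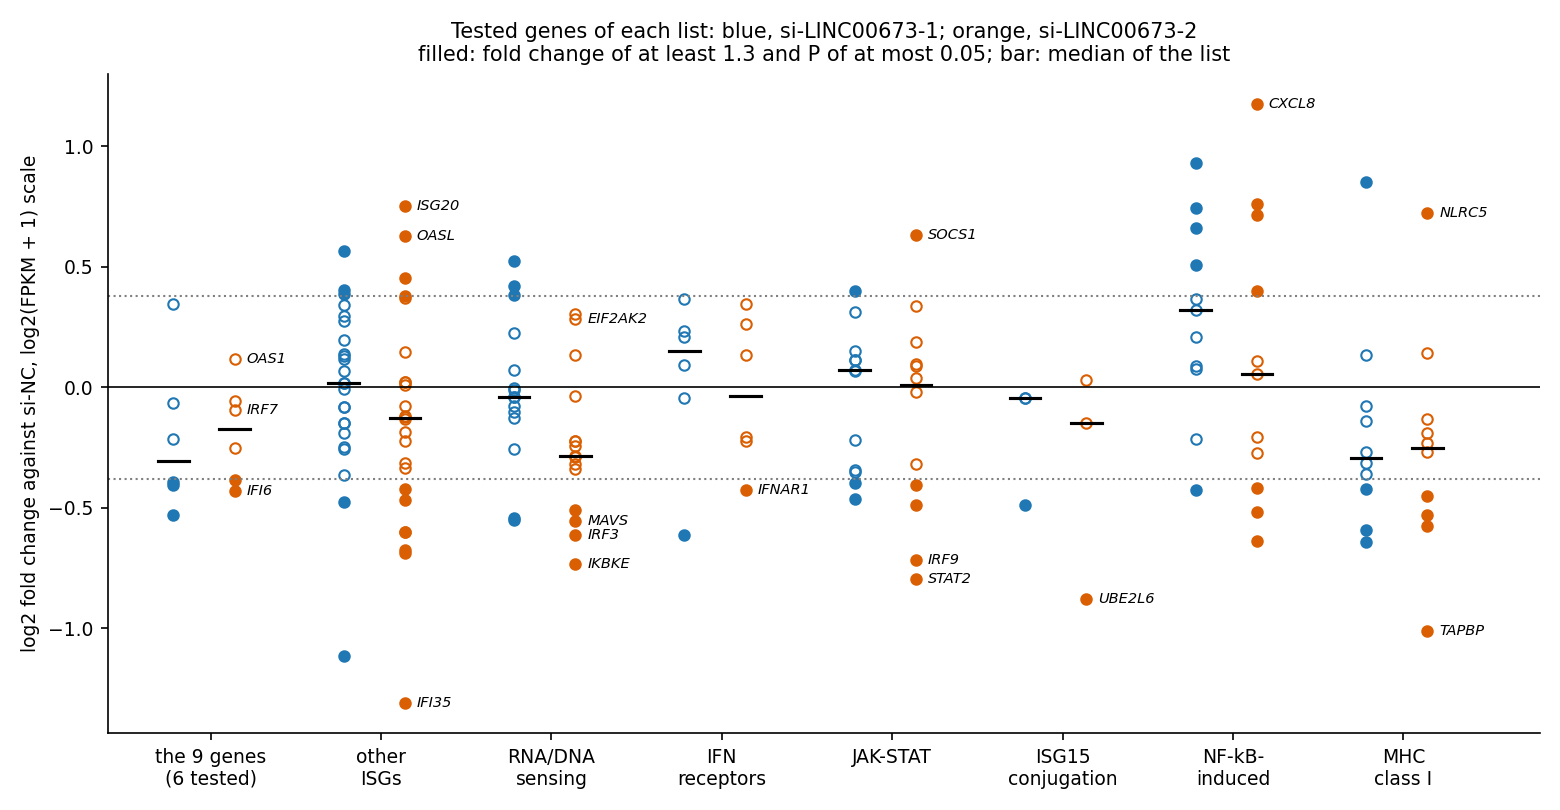
Log2 fold change against si-NC on the log2(FPKM + 1) scale of each tested gene of the lists (columns), with si-LINC00673-1 in blue and si-LINC00673-2 in orange; filled points passed the criteria, bars are medians and dotted lines mark 1.3-fold. Of the 9 genes, the 6 tested lie between -0.53 and 0.35, STAT2 and IRF9 are at -0.80 and -0.72 with si-LINC00673-2, and filled points lie on both sides of 0 among the other interferon-stimulated genes (ISGs).

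The split of calls over all genes depended on the scaling of libraries. Of genes that passed, 41.7% were higher with si-LINC00673-1 and 32.2% with si-LINC00673-2, and 28.7% between the siRNAs. These shares were 57.3%, 35.3% and 14.1% after TPM scaling and 42.5%, 47.2% and 61.1% after median-ratio scaling. The directions of IFIT2, IFIT3, MX1, IFI6 and OAS1 against si-NC were the same under both scalings, whatever the call, while ISG15 and IRF7 with si-LINC00673-2 were at 0.05 and 0.01 after median-ratio scaling.

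Over the 9 libraries, the mean of the standardised values of the 6 tested genes was most like CAPN15 (Pearson r = 0.974), NPDC1 (0.971), GNB1L (0.967), PLEKHG5 (0.966) and GCHFR (0.965) among 12790 tested genes outside the lists. These r values are a description of likeness over libraries that fall into 3 groups. CAPN15 had log2 fold changes of -0.24 and -0.26 with si-LINC00673-1 and si-LINC00673-2.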

How the data were processed

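The authors deposited 1 table of FPKM per gene for 9 libraries sequenced on BGISEQ-500, rounded to 2 decimals. The submitters' processing notes name Bowtie2 and GRCh37.p13, and the counting tool is not given in the sources used here. The table also holds the authors' ratios, P and Q values between groups, which were not used. FPKM keeps no read counts. From the spacing of low values each library held about 23400000 to 27300000 fragments, which limits the precision of genes near 1 FPKM.

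Groups were taken from the sample titles, where the libraries of a group are unsuffixed, r1 and r2. All 9 libraries were fitted with limma 3.58.1 in R 4.3.3 (lmFit, eBayes with trend) on log2(FPKM + 1), with condition as the only factor, after removal of genes whose mean over the libraries was under 1 FPKM. A gene was called at a fold change of 1.3 or more and an unadjusted P of 0.05 or less, the study's criteria, with Benjamini-Hochberg adjustment over all 12884 genes beside it. Exact permutation tests were two-sided. The fit was tested on simulated data. Python 3.11.15, pandas 2.3.3, numpy 2.4.6, scipy 1.17.1 and matplotlib 3.10.9 were used for the rest.

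The 9 genes and the lists were chosen with earlier results of these data known. Named from the lists were genes called in the same direction with both siRNAs, at most 6 of a list, and IFNAR1, IFNAR2, IFNLR1, STAT2, IRF9, IRF3, MAVS, IFIH1, DHX58, EIF2AK2 and USP18 whatever their values. Alternatives were the added value, the filter, scaling, the fold limit, a replicate block, the libraries fitted and leaving out each library. GC content and seed matches used the longest GENCODE 29 transcript, and promoters the RefSeq windows of GRCh38.p14. Some genes of the lists are not reported here.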

Additional observations from a re-analysis of the deposited data

Results flagged for a closer look

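The difference between the 2 siRNAs against LINC00673, as the log2 fold change of si-LINC00673-2 against si-LINC00673-1, was tested in limma with Benjamini-Hochberg adjustment. On the log2(FPKM + 1) scale 3 of the 6 tested genes had an adjusted P of at most 0.05, as did 44% of all tested genes, so that the count is near that of the whole table. ISG15 was at 0.35 (limma adjusted P = 0.043), IRF7 at 0.44 (limma adjusted P = 0.0062) and OAS1 at -0.23 (limma adjusted P = 0.0028). With 0.1 FPKM added and no filter 4 of the 9 genes did, against 27.6% of all genes. There IFIT2 was at -0.99 (limma adjusted P = 0.00088) and IFIT3 at -0.79 (limma adjusted P = 0.011), OAS1 and IRF7 were also under 0.05, and ISG15 was not (limma adjusted P = 0.079). In the pathway, STAT2 was at -0.45 (limma adjusted P = 3.7e-05) and UBE2L6 at -0.39 (limma adjusted P = 0.013) on the log2(FPKM + 1) scale, and with median-ratio scaling they were at -0.36 and -0.31, under the fold limit. Groups of 3 libraries were too small to look for a library far from the others.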

How the results depend on the processing

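Of the values of the 9 genes under alternatives, 407 kept their side of the criteria, 10 came to pass, 25 ceased to pass and 1 that passed had the opposite sign, IRF7 with si-LINC00673-2, at 0.40 after the GC correction. Of the 407, 8 that did not pass changed sign. These were ISG15 with si-LINC00673-2 (0.05 with median-ratio scaling, 0.32 after the GC correction, 0.07 without the unsuffixed library of that siRNA), IRF7 with si-LINC00673-2 (0.01 with median-ratio scaling), IFI6 between the siRNAs (0.06, 0.04 and 0.04 in the same 3 settings as ISG15) and DDX58 with si-LINC00673-1 (0.003 without r2 of si-NC). IFIT1 with si-LINC00673-2 passed without the unsuffixed library of that siRNA or of si-NC, at -0.47 and -0.40. Counts below are given for si-LINC00673-1, si-LINC00673-2 and the difference between them. In fits with a filter, counts of the 9 cover only the members inside it. Of all genes, 3436, 4385 and 984 passed, and of the 6 tested members 3, 2 and 1. With a minimum of 5 FPKM, 2211, 2714 and 547 genes passed, and 1 of the 4 members inside it with si-LINC00673-2. With a fold limit of 2, 366, 604 and 40 passed, and 0, 0 and 0 of the 6. IFIT2 and IFIT3 were outside that fit. With 0.1 FPKM added and no filter they were beyond 2-fold with si-LINC00673-2, at -1.52 and -1.42, and at -0.53 and -0.63 with si-LINC00673-1. With no fold limit, 8724, 9396 and 6697 passed, and 5, 4 and 3 of the 6. With 0.1 FPKM added and no filter, 5675, 6949 and 2530 passed, and 5, 5 and 3 of the 9. With no filter, 4 of the 9 passed with si-LINC00673-2. After the GC correction, 0, 1 and 2 of the 9 passed. Between the siRNAs, 1656 genes passed with 0.1 FPKM added, 1948 with TPM scaling and 569 after the GC correction. Median-ratio scaling gave 0 of the 9 with si-LINC00673-2 and 2 between the siRNAs, and TPM scaling gave 2 between them. After the GC correction 48.6%, 50.4% and 57.1% of calls were higher. The cause of these changes was not tested.

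Leaving out each library gave 3322 to 3582, 4304 to 4475 and 937 to 1119 genes. Of the members inside the filter it gave 1 to 3, 0 to 2 and 0 to 2. The lowest counts were without the unsuffixed si-NC library (1, IRF7), without the unsuffixed si-LINC00673-2 library (0), and without r2 of si-LINC00673-1 or r1 of si-LINC00673-2 (0). IFIT2 ranged from -0.58 to -0.47 with si-LINC00673-1 and from -1.59 to -1.46 with si-LINC00673-2, and IFIT3 from -0.74 to -0.52 and from -1.53 to -1.30. With the replicate label as a block, 3449, 4400 and 988 genes passed, and 3, 2 and 1 of the members inside the filter. Deviations of libraries with the same label from their group means correlated at -0.24 to 0.10. With 3 libraries per group this check cannot decide whether the labels pair the libraries. Depth limits IFIT1, IFIT2 and IFIT3, which rest on few fragments. Among pathway genes with si-LINC00673-1, leaving out 1 library put ISG20 (0.34 to 0.37), SOCS1 (0.33 to 0.37), IRF9 (-0.36 to -0.33) and PSMB9 (-0.37) under the fold limit, and TPM scaling put NFKB2 there (-0.35).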
